A study of Sus scrofa with 12 samples.

Results

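The genes described here encode the membrane traffic machinery of the endoplasmic reticulum (ER) and the Golgi apparatus, namely golgins, vesicle coats, tethering complexes, cargo receptors and the SNARE proteins that fuse vesicles with their target. They were chosen by symbol (GOLGA and GOLGB numbers, COG1 to COG8, the COPA, COPB, COPE, COPG and COPZ subunits, SEC numbers, TRAPPC, TMED and KDELR numbers, GORASP, STX and VAMP numbers), a rule on names that uses no measured value. Of the 13363 distinct symbols in the mRNA table, 77 met the rule. Where a symbol had several entries, which was so for 17 of the 77, the entry with the most reads was used.

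Messenger RNA was sequenced from adipose tissue-derived mesenchymal stromal/stem cells (MSCs) of 3 female domestic pigs aged 3 months, and from the extracellular vesicles (EVs) that the same cells shed. The cells came from abdominal fat, were grown with platelet lysate and were used at passage 3, and the EVs were recovered from their culture supernatant by ultracentrifugation. This gave 3 MSC and 3 EV libraries, numbered by pig, with no treatment in either group. The comparison asks which transcripts take a larger or smaller share of the RNA in EVs than in the cells that released them.

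Proteins for secretion enter the ER through the translocon, leave it in vesicles coated with COPII, and are returned from the Golgi in vesicles coated with COPI. Golgins and tethering complexes such as COG and TRAPP capture the arriving vesicles, and SNARE proteins on both membranes then drive their fusion. MSCs secrete matrix and growth factors through this route, whereas EVs form at endosomes and at the plasma membrane.

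The libraries held between 10429085 and 12276855 reads on genes, and the 77 genes took between 0.602% and 0.741% of them. Values are given as CPM, the reads of a gene scaled to a common library total after trimmed mean of M-values (TMM) normalization, which is a share of each library and not an amount per vesicle or cell, and 3 reads, the most that a count of 0 allows, corresponded to between 0.232 and 0.303 CPM (counting error only). MSC replicate 2 stood apart from the other libraries. The slope of its log2 deviation from the mean of the 6 libraries was -0.275 per 10-fold increase in gene length, compared with -0.046 to 0.155 in the others, and it was the lowest MSC library for 29 and the highest for 23 of the 60 genes tested (46.0% and 38.9% of all entries tested), so results are also given without it. Among the markers of the cells, CD44, NT5E (CD73) and ENG (CD105) were read in every library, whereas THY1 (CD90) was at 0 reads. The EV marker CD63 was abundant, between 846 and 1880 CPM, and CD9 and ITGB1 (CD29) had only 36 and 10 reads in total. THY1, CD9 and ITGB1 each shared nearly their whole span with another entry, so these low counts do not show absence. The platelet marker PPBP, the adipocyte marker PLIN1 and the pericyte marker RGS5 were at 0 reads, but each also shared its whole span with another entry, ADIPOQ of adipocytes had 1 read, MYH11 of smooth muscle 18 and the leukocyte marker PTPRC (CD45) 33 reads over all 6 libraries, and the monocyte marker CD14 was between 42.1 and 60.2 CPM. The endothelial marker PECAM1 (CD31) was at 16.7, 10.6 and 9.67 CPM in MSC replicates 1, 2 and 3 and at 6.59, 1.56 and 3.14 CPM in the EVs. All EV values lay below the MSCs (log2 fold change -1.71, SE 0.54, edgeR adjusted p = 0.249). The PECAM1 entry shared 97.1% of its span with another entry, and the ENG entry 99.7%. The study describes the MSCs as negative for CD31, CD14 and CD45. The part of any difference in cell makeup in the results below was not tested.

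Of the 77 genes, 60 had enough reads to be tested and 17 did not. No reads were found in any library for 11 of them, namely COG4, SEC24A, TRAPPC13, KDELR3, TMED5, TMED7, SEC22C, STX5, STX6, VAMP4 and VAMP7. A further 6 had between 1 and 26 reads over all 6 libraries, which were COPG2, SEC14L5, SEC61B, SEC62, TMED6 and STX12. An entry that shared at least 90% of its span with another entry was found for 16 of these 17 genes (all but SEC14L5) but for only 8 of the 60 tested. STX5, which pairs with other SNAREs in ER-to-Golgi fusion, and SEC61B, a subunit of the translocation channel, are used by every secreting cell, so a listing at or near 0 reads in this table does not show that the transcript was missing. None of the VAMP genes could therefore be compared.

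The genes tested were spread around equal shares in EVs and MSCs, and a small estimate does not show that the shares were equal. Of the 60 genes tested, 27 had a log2 fold change (EV over MSC) above 0 and 33 below 0. For 35 it lay within 0.5 of 0, a range for which the share of all entries was not counted. The median was -0.05, compared with -0.02 over all 12392 entries tested. By edgeR's quasi-likelihood test, 0 of the 60 passed an adjusted p-value of 0.05 with a fold change over 2 in either direction, as did 0.0% of all entries in either direction, and the lowest adjusted p among the 60 was 0.237 (STX17). By the thresholds of the study, a fold change over 2 and an unadjusted p-value under 0.05, 3 genes were higher in EVs (GOLGA4, GOLGB1 and STX17) and 0 were lower, compared with 5.55% and 3.57% of all entries. DESeq2 put 1 gene past its adjusted threshold as higher, STX17, and 0 as lower, where it did so for 2.04% and 1.5% of all entries. At an unadjusted p-value under 0.05 regardless of fold change, the same 3 genes were higher (background 8.03%) and 7 were lower (background 7.93%), among them COPZ1, SEC13, TRAPPC5, TMED3, TMED4 and STX10, and DESeq2 gave 3 and 9 (background 9.22% and 9.23%). Since the libraries are bulk pools, fewer cells or vesicles with a transcript and less of it in each cannot be told apart. With the pig as a block, 0 again passed the adjusted threshold in either direction (background 0.492% higher and 0.605% lower), and 4 were higher and 4 lower by unadjusted p-value alone (background 10.9% and 8.67%). Without the block the higher genes made up 5.0% of the 60 and the lower ones 11.7%.

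Single libraries moved these counts. Without MSC replicate 2, 0 genes were more than 2-fold higher and 0 lower at the unadjusted threshold (background 4.44% and 3.89%), and 3 were higher and 4 lower at any fold change (background 8.0% and 7.67%). There GOLGA4, GOLGB1 and STX17 kept unadjusted p-values under 0.05 with log2 fold changes of 0.98, 0.81 and 0.91. The 7 lower genes became 0 without EV replicate 2, 2 without EV replicate 1, and 4 without MSC replicate 3. COPZ1, SEC13, TMED3 and STX10 each kept an unadjusted p-value under 0.05 in 2 of the 6 edgeR fits that left out 1 library. TRAPPC5 kept it in 3 of the 6 and TMED4 in 4. At the unadjusted threshold, the count that was more than 2-fold lower went from 0 to 3 without MSC replicate 1 or without EV replicate 3. It went to 1 without MSC replicate 3. The share of all entries was not counted in the fits without a library other than MSC replicate 2.

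Each pig gives its own EV to MSC comparison. In all 3 pigs 10 of the 60 genes were higher in EVs and 16 were lower, where the same held for 22.6% and 24.2% of all entries. Every EV library lay above every MSC library for 7 genes (14.3% of all entries) and below for 12 (13.6%). The remaining 41 had overlapping groups. The map of the genes by library shows these values.

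**Figure D1:**
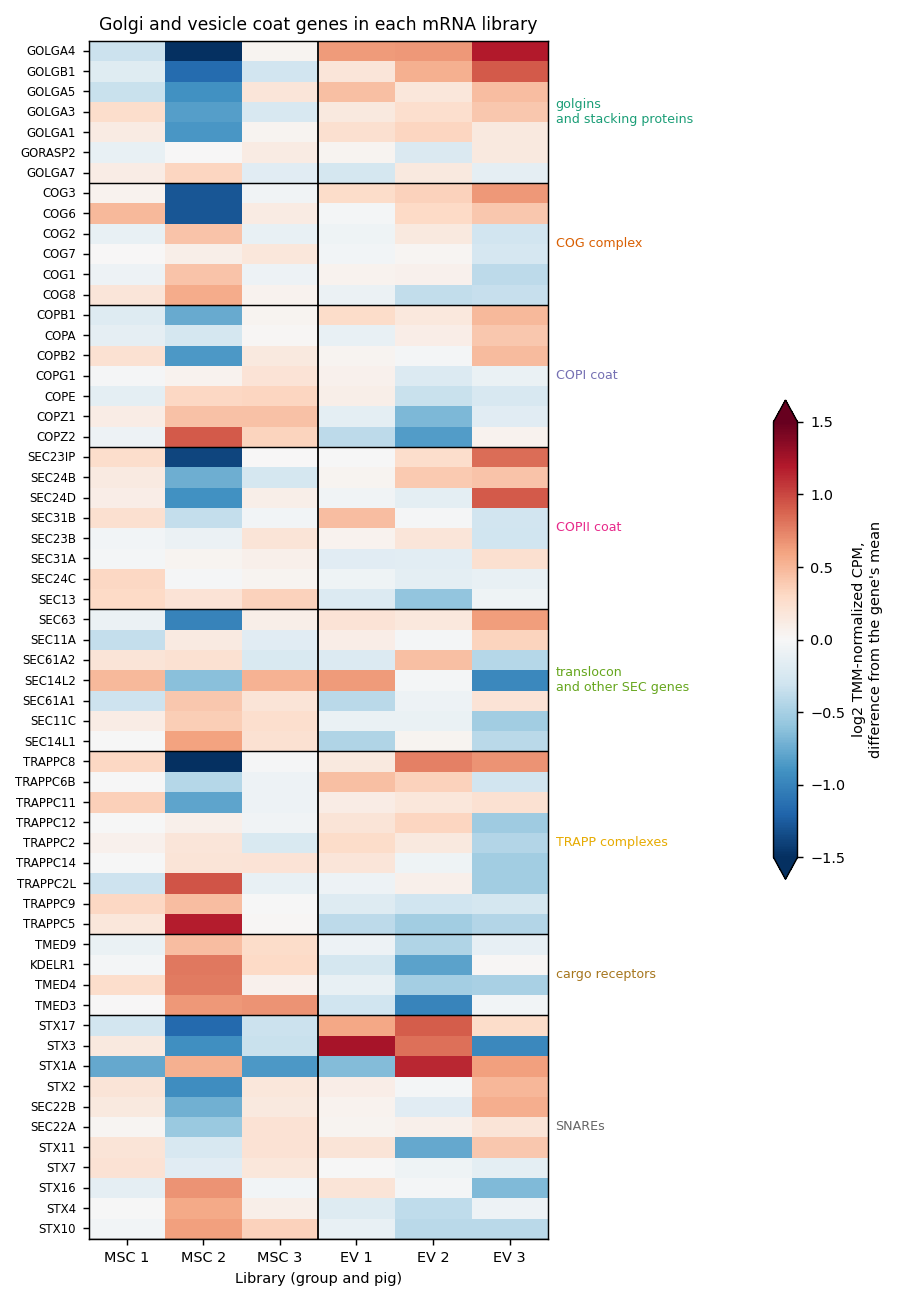
Each cell is the log2 of a gene's TMM-scaled CPM in 1 library relative to its mean over the 6 libraries, with rows ordered by role and columns by group and pig. GOLGA1, GOLGA3, GOLGA4, GOLGA5 and GOLGB1 were lowest in MSC replicate 2, where cargo receptors such as TMED9 and KDELR1 were highest.

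The golgins and stacking proteins, called the golgin group below, had the highest median. Golgins are long coiled-coil proteins that reach out from Golgi membranes to capture vesicles. All 7 genes of the group were tested, among them the stacking protein GORASP2 and GOLGA7, which are not long coiled-coil tethers. The median log2 fold change of the 7 was 0.47. Above 0 were 5, and the 2 below were GOLGA7 (-0.18) and GORASP2 (-0.01). By edgeR, 2 of the 7 were higher at an unadjusted p-value under 0.05 (8.03% of all entries). The median over the 7 of the EV to MSC log2 ratio was 0.16, 1.07 and 0.28 in pigs 1, 2 and 3, so the difference was largest in the pig whose MSC library stood apart. It was 0.24 without MSC replicate 2 and 0.37 when the trend with gene length was removed from every library.

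GOLGA4 (ENSSSCG00000011243, chromosome 13, 24019462 to 24132699 of the susScr3 build, plus strand), a golgin of the trans-Golgi that tethers vesicles arriving from endosomes, was at 68.4, 18.6 and 87.8 CPM in MSC replicates 1, 2 and 3 and at 132, 134 and 195 CPM in the EVs of the same pigs. All 3 EV libraries lay above all 3 MSC libraries, and MSC replicate 2 was far below the other MSC libraries. The log2 fold change was 1.40 (SE 0.52, edgeR unadjusted p = 0.0287, adjusted p = 0.275), and each pig showed the direction, by log2 ratios of 0.95, 2.82 and 1.14. With the pig as a block it was 1.63 (SE 0.40), and its edgeR adjusted p of 0.079 was the lowest among the 60. Without EV replicate 3 its unadjusted p-value was no longer under 0.05.

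GOLGB1, or giantin (ENSSSCG00000011882, chromosome 13, 148398446 to 148474820, plus strand), a golgin of the Golgi rims that tethers COPI vesicles, was at 145, 73.6 and 135 CPM in the MSCs and at 186, 238 and 310 CPM in the EVs. Here too the groups did not overlap and the lowest library was MSC replicate 2. The log2 fold change was 1.06 (SE 0.34, edgeR unadjusted p = 0.0146, adjusted p = 0.249), with log2 ratios of 0.36, 1.69 and 1.2 in the 3 pigs. GOLGB1 has a gene model of 10946 bases, and its log2 fold change was 0.56 (unadjusted p = 0.056) when the length trend was removed.

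GOLGA1, or golgin-97, of the trans-Golgi, was at 29.5, 14.8 and 27.9 CPM in MSCs and at 32.0, 34.1 and 30.1 CPM in EVs. Its groups did not overlap, but MSC replicates 1 and 3 lay just under the EV libraries, and the log2 fold change of 0.41 (SE 0.31, unadjusted p = 0.22) was 0.16 without MSC replicate 2. GOLGA5, or golgin-84, which tethers COPI vesicles within the Golgi, had an unadjusted p-value under 0.05 with the pig as a block (log2 fold change 0.72, edgeR unadjusted p = 0.0334) but not without it (log2 fold change 0.66, unadjusted p = 0.065). It was named after its values were seen. GORASP2, which links Golgi cisternae into stacks, was at 223, 243 and 264 CPM in MSCs and at 249, 208 and 268 CPM in EVs, and thus had fully overlapping groups (log2 fold change -0.01, SE 0.23). It had the highest level per length of its group, a mean of 26.6 ± 2.71 RPKM (the deposited read share per kilobase of gene length) in MSCs and 26.7 ± 2.46 in EVs (SD, n = 3). The GORASP2 entry lies within the span of OCA2, which had 1 read.

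**Figure D2:**
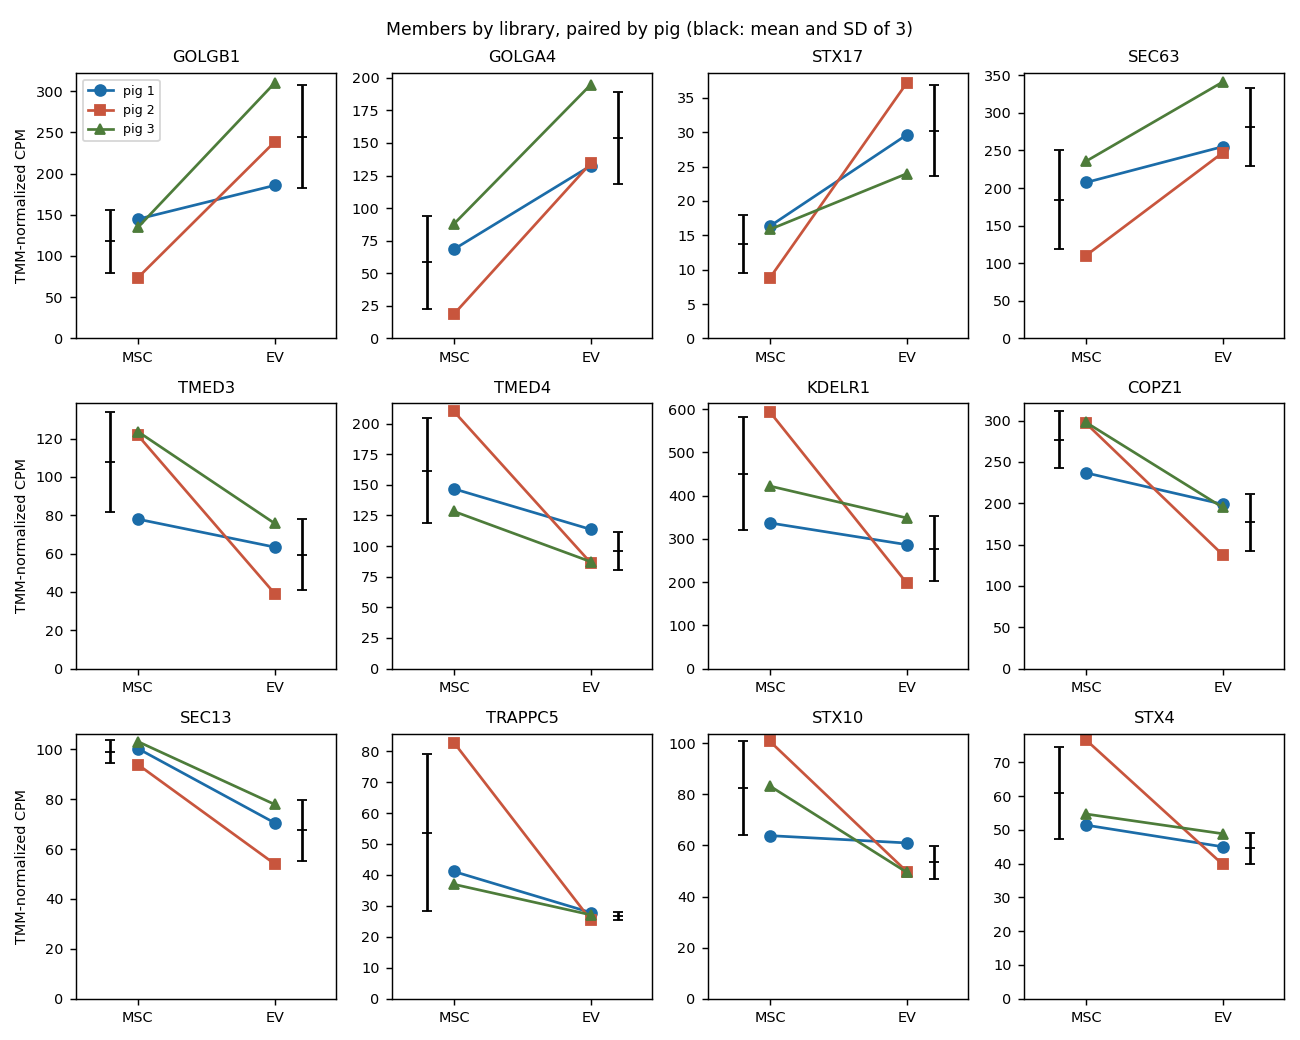
TMM-scaled CPM of single genes in the 3 MSC and 3 EV libraries, with lines joining the libraries of 1 pig and black marks for the mean and SD of 3. For GOLGA4, GOLGB1 and STX17 all EV libraries lie above all MSC libraries, and for TMED3, TMED4 and COPZ1 all lie below.

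The conserved oligomeric Golgi (COG) complex is a multisubunit tether for vesicles that recycle enzymes within the Golgi, and 6 of its 7 listed subunits were tested. Their median log2 fold change was -0.16, with 2 above 0 and 4 below, and 0 of the 6 had an edgeR unadjusted p-value under 0.05 in either direction (8.03% higher and 7.93% lower among all entries). Its subunits lay on both sides of 0. COG3, at 11.5, 4.59 and 10.8 CPM in MSCs and 13.5, 14.1 and 17.5 CPM in EVs, had every EV library above every MSC library (log2 fold change 0.74, SE 0.39, unadjusted p = 0.0967). COG8 went the other way, at 57.1, 74.4 and 52.3 CPM in MSCs and 47.5, 39.1 and 39.6 CPM in EVs, again without overlap (log2 fold change -0.54, SE 0.24, unadjusted p = 0.0519). The COG8 entry lies within the span of GALNS, a gene with 14423 reads, so reads of both may be mixed. COG1, with the highest level per length of the complex, was at 160, 227 and 161 CPM in MSCs and 175, 177 and 129 CPM in EVs, with overlapping groups and a log2 fold change of -0.19 (SE 0.26).

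COPI coats the vesicles that return from the Golgi, and 7 of its 8 listed genes were tested. Their median log2 fold change was -0.16, with 3 above 0 and 4 below. The zeta subunit COPZ1 (ENSSSCG00000000290, chromosome 5, 20379745 to 20399578, plus strand) was at 237, 297 and 298 CPM in MSCs and at 199, 138 and 195 CPM in EVs. All EV libraries lay below all MSC libraries, with EV replicate 2 the lowest. The log2 fold change was -0.65 (SE 0.25, edgeR unadjusted p = 0.0353, adjusted p = 0.287), and it was below 0 in 3 of 3 pigs, but with the pig as a block its unadjusted p was 0.0613. Its paralogue COPZ2, named after its values were seen, was at 118, 234 and 156 CPM in MSCs and 94.7, 69.2 and 129 CPM in EVs, which overlapped, and its log2 fold change of -0.79 (SE 0.34) had an unadjusted p of 0.0517. The beta subunit COPB1 had the opposite direction, at 14.4, 9.76 and 16.9 CPM in MSCs and 19.8, 18.3 and 23 CPM in EVs. These did not overlap, although MSC replicate 3 came close to EV replicate 2, and the log2 fold change was 0.57 (SE 0.30, unadjusted p = 0.0915). The COPB1 entry shared 24.9% of its span with another COPB1 entry, which had 1 read. COPE, the epsilon subunit and the COPI gene with the highest level per length (62.1 ± 7.84 RPKM in MSCs and 51.0 ± 11.4 in EVs, SD, n = 3), was at 203, 280 and 282 CPM in MSCs and 240, 180 and 191 CPM in EVs, with overlapping groups and a log2 fold change of -0.32 (SE 0.25).

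For the COPII coat, 8 of 9 genes were tested and the median log2 fold change was 0.04, with 4 above 0 and 4 below. SEC13 (ENSSSCG00000011572, chromosome 13, 73561594 to 73569984, minus strand), which forms the outer cage of the coat together with SEC31 and is also part of the nuclear pore, was at 100, 93.9 and 103 CPM in MSCs and at 70.5, 54.0 and 77.9 CPM in EVs. The MSC libraries were within a narrow range and all EV libraries lay below it. The log2 fold change was -0.55 (SE 0.22, edgeR unadjusted p = 0.0397, adjusted p = 0.294), lower in 3 of 3 pigs, with an unadjusted p of 0.0651 when the pig was a block. SEC31A, the other cage protein, had no such separation. It was the COPII gene with the highest level per length, at 636, 667 and 687 CPM in MSCs and 580, 584 and 768 CPM in EVs, with overlapping groups and a log2 fold change of -0.04 (SE 0.25). SEC24C, one of the SEC24 adaptors that select cargo, was at 221, 177 and 183 CPM in MSCs and 171, 161 and 165 CPM in EVs, a small difference without overlap (log2 fold change -0.23, SE 0.21, unadjusted p = 0.324). Its relatives SEC24B and SEC24D had log2 fold changes of 0.54 (SE 0.28) and 0.50 (SE 0.40), both with overlapping groups.

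Among the genes of the translocon, signal peptidase and other SEC genes, 7 of 10 were tested, with a median log2 fold change of -0.19 and 0 at an edgeR unadjusted p-value under 0.05 (8.03% higher and 7.93% lower among all entries). SEC63, which helps pull chains through the translocon, was at 207, 110 and 236 CPM in MSCs and 255, 247 and 341 CPM in EVs, and SEC11C, a catalytic subunit of the signal peptidase, was at 36.5, 43.5 and 40.2 CPM in MSCs and 31.4, 31.4 and 23.6 CPM in EVs. Neither showed overlap between groups, SEC63 with the EVs above (log2 fold change 0.61, SE 0.33, unadjusted p = 0.107) and SEC11C with the EVs below (log2 fold change -0.48, SE 0.23, unadjusted p = 0.0786). The other catalytic subunit, SEC11A, had the highest level per length of the group and lay at 91.9, 129 and 105 CPM in MSCs and 126, 115 and 149 CPM in EVs, with overlap (log2 fold change 0.26, SE 0.23). Both channel genes, SEC61A1 and SEC61A2, had values near 0 (log2 fold changes -0.19 and -0.09), and reads of these paralogues may have been shared between them. The SEC61A1 entry also shared 97.7% of its span with another SEC61A1 entry, which had 37 reads.

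TRAPP complexes tether vesicles at the ER exit and the Golgi and activate Rab GTPases. Of the 10 genes listed, 9 were tested, and their median log2 fold change was 0.00, with 5 above 0 and 4 below. TRAPPC5 (ENSSSCG00000013573, chromosome 2, 71884251 to 71886383, plus strand), a small core subunit, was at 41.1, 82.8 and 37.0 CPM in MSCs and at 27.9, 25.5 and 27.1 CPM in EVs. The EV libraries were close together and below all MSC libraries, of which replicate 2 was far above the others. Its log2 fold change of -1.0 (SE 0.34, edgeR unadjusted p = 0.0206, adjusted p = 0.264) lay at the limit of the 2-fold criterion without passing it, and was -0.54 without MSC replicate 2. TRAPPC9, a subunit of the Golgi form of the complex, was at 200, 223 and 160 CPM in MSCs and 141, 131 and 134 CPM in EVs, also without overlap (log2 fold change -0.52, SE 0.22, unadjusted p = 0.0509). For TRAPPC2L, the member with the highest level per length, MSC replicate 2 decided the sign, at 34.1, 80.9 and 39.0 CPM in MSCs and 40.0, 44.4 and 29.4 CPM in EVs. Its log2 fold change was -0.43 (SE 0.37) with that library and 0.06 without it.

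The cargo receptors had the lowest median. TMED proteins (the p24 family) gather cargo into coated vesicles and KDEL receptors return escaped ER proteins, and only 4 of their 8 genes could be tested. All 4 had log2 fold changes below 0, with a median of -0.73 and a range from -0.86 to -0.44. The median log2 ratio was -0.26, -1.43 and -0.48 in pigs 1, 2 and 3, and the median log2 fold change was -0.49 without MSC replicate 2 and -0.72 with the length trend removed. Of the 4, TMED9 and KDELR1 were among the most abundant transcripts of the machinery per length, with means over the 6 libraries of 60.5 and 54.9 RPKM. TMED3 and TMED4 were lower, at 16.4 and 16.8 RPKM.

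TMED3 (chromosome 7, 53970295 to 53975981, minus strand) was at 78.0, 122 and 124 CPM in MSCs and at 63.4, 39.1 and 75.8 CPM in EVs. MSC replicate 1 was only just above EV replicate 3, and the groups did not overlap. Its log2 fold change was -0.86 (SE 0.32, edgeR unadjusted p = 0.0284, adjusted p = 0.275), lower in 3 of 3 pigs. TMED4 (ENSSSCG00000016744, chromosome 18, 55602759 to 55606054, plus strand) was at 147, 210 and 128 CPM in MSCs and at 114, 86.3 and 87.2 CPM in EVs, again without overlap and lower in 3 of 3 pigs (log2 fold change -0.76, SE 0.27, edgeR unadjusted p = 0.0239, adjusted p = 0.272). TMED9, the highest of the 77 genes per length, was at 312, 460 and 404 CPM in MSCs and 317, 245 and 306 CPM in EVs, where EV replicate 1 reached MSC replicate 1 (log2 fold change -0.44, SE 0.26, unadjusted p = 0.131). KDELR1, named after its values were seen, was at 337, 593 and 422 CPM in MSCs and 287, 198 and 348 CPM in EVs, with overlap at the lowest MSC library (log2 fold change -0.70, SE 0.33, unadjusted p = 0.0665). The TMED4, TMED9 and KDELR1 entries each lie wholly within the span of another entry, which had 476, 148 and 0 reads. The TMED3 entry shared 43.0% of its span with another TMED3 entry, which had 3 reads, and a further TMED3 entry had 15 reads.

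SNARE genes lay on both sides of 0. Of 18 listed, 12 were tested, with a median log2 fold change of 0.06, 6 above 0 and 6 below. STX17 (ENSSSCG00000005386, chromosome 1, 269898456 to 270003564, plus strand), the syntaxin that brings autophagosomes to fusion with lysosomes, was at 16.3, 8.80 and 15.9 CPM in MSCs and at 29.6, 37.2 and 24 CPM in EVs. All EV libraries lay well above all MSC libraries, in contrast to the other syntaxins. The log2 fold change was 1.15 (SE 0.33, edgeR unadjusted p = 0.00927, adjusted p = 0.237), with log2 ratios of 0.84, 2.02 and 0.58 in the 3 pigs. It was 1.17 when blocked by pig and 1.0 in the fit without the length trend, and its unadjusted p-value stayed under 0.05 in each of the 6 fits that left out 1 library. The DESeq2 adjusted p was 0.0492.

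STX10, a syntaxin of the trans-Golgi network, was at 63.8, 100.7 and 83.2 CPM in MSCs and at 61, 49.8 and 49.5 CPM in EVs. The nearest libraries, MSC replicate 1 and EV replicate 1, came from the same pig, and the log2 fold change was -0.63 (SE 0.25, edgeR unadjusted p = 0.0362, adjusted p = 0.287), with an unadjusted p of 0.0707 when the pig was a block. STX4, which serves fusion at the plasma membrane, was at 51.4, 76.7 and 54.7 CPM in MSCs and 45, 39.8 and 48.9 CPM in EVs, without overlap but with an unadjusted p of 0.103 (log2 fold change -0.45, SE 0.24).

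**Figure D3:**
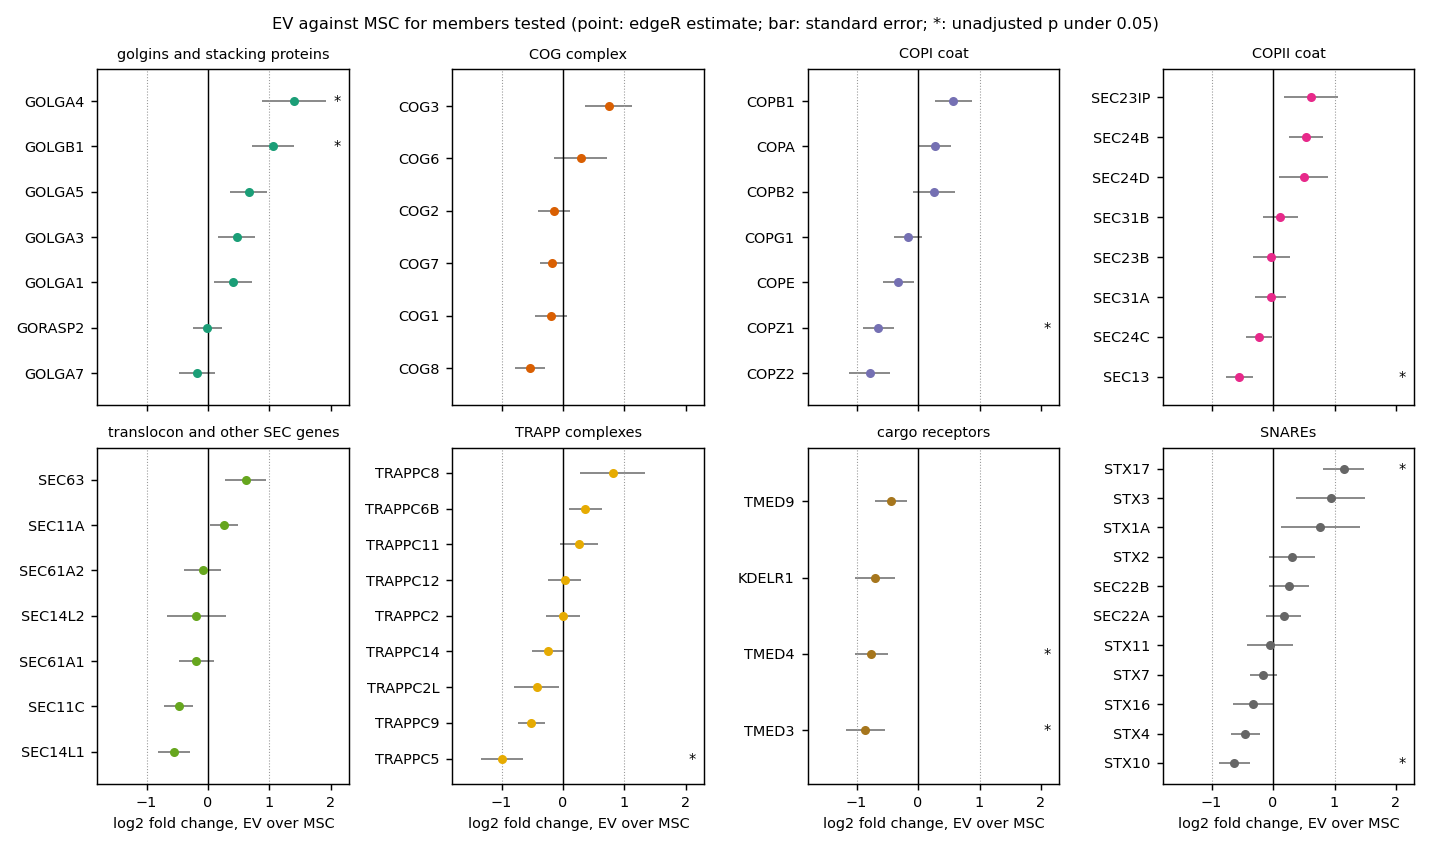
Log2 fold change (EV over MSC) of the genes tested, by role, with points for the edgeR estimate, bars for its standard error and asterisks for an unadjusted p-value under 0.05. Values run from -1.0 (TRAPPC5) to 1.40 (GOLGA4), and all 4 cargo receptors lie below 0.

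The long genes of the machinery tended to be higher in EVs than the short ones. Gene model length and log2 fold change had a Pearson r of 0.33 and a Spearman rho of 0.29 across the 60 genes, compared with 0.10 and 0.15 across all 12392 entries tested, and these genes share libraries and are not independent replicates. The median log2 fold change was -0.38 for the 14 genes under 1500 bases, -0.15 for the 28 from there up to 3000 bases, and 0.19 for the 18 that were longer, compared with -0.13, -0.07 and 0.14 for all entries of these lengths. GOLGA4, GOLGB1 and STX17 all belonged to the longest class. MSC replicate 2 was the lowest MSC library for 12 of the 18 longest genes and the highest for 7 of the 14 shortest (66.7% and 50%), as it was for 55.4% and 42.0% of all entries of these lengths. With the length trend removed from each library, the correlation across the 60 genes was 0.12 (rho 0.15), and the log2 fold changes were 1.12 for GOLGA4, 0.56 for GOLGB1 and 1.0 for STX17. In that fit 2 genes were more than 2-fold higher and 1 lower at the unadjusted threshold (background 5.11% and 3.91%). The median of the TRAPP genes there was -0.28 in place of 0.00. Without MSC replicate 2 the correlation across the 60 genes was 0.21 (rho 0.23), and across all entries 0.07 (rho 0.12).

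**Figure D4:**
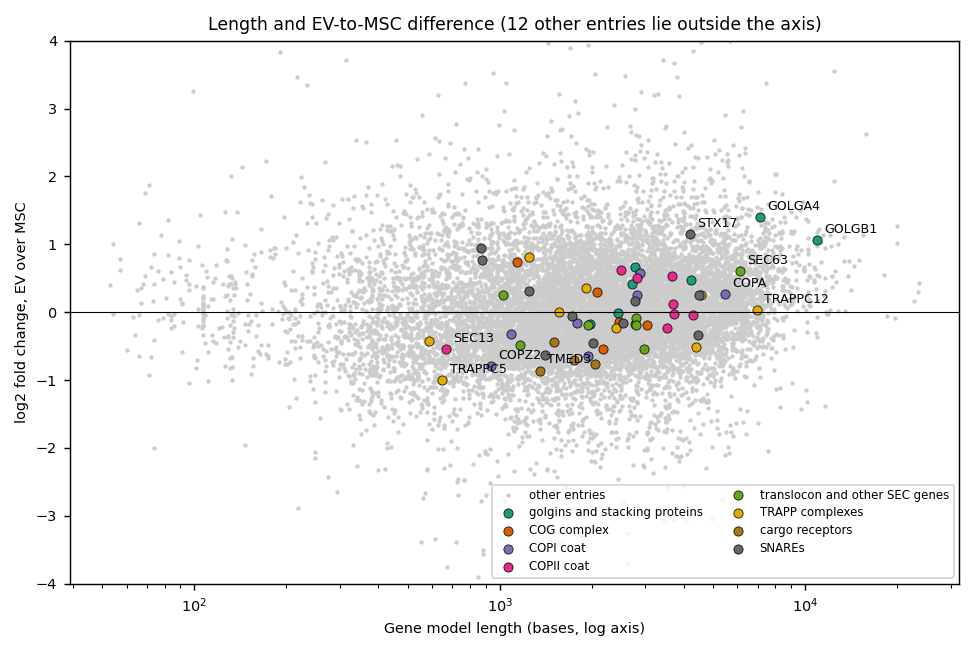
Gene model length (log axis, bases) against the log2 fold change, EV over MSC, for all entries tested (grey) and for the genes of the machinery, coloured by role. GOLGA4 and GOLGB1, with models of 7108 and 10946 bases, lie at the upper right, and the cargo receptors lie below 0 at shorter lengths.

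Medians of the role groups under other fits are shown next. The golgin median stayed between 0.24 and 0.63 and the cargo receptor median between -0.85 and -0.49 when each library was left out in turn, whereas the medians of the other groups lay between -0.24 and 0.22 in the same fits.

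**Figure D5:**
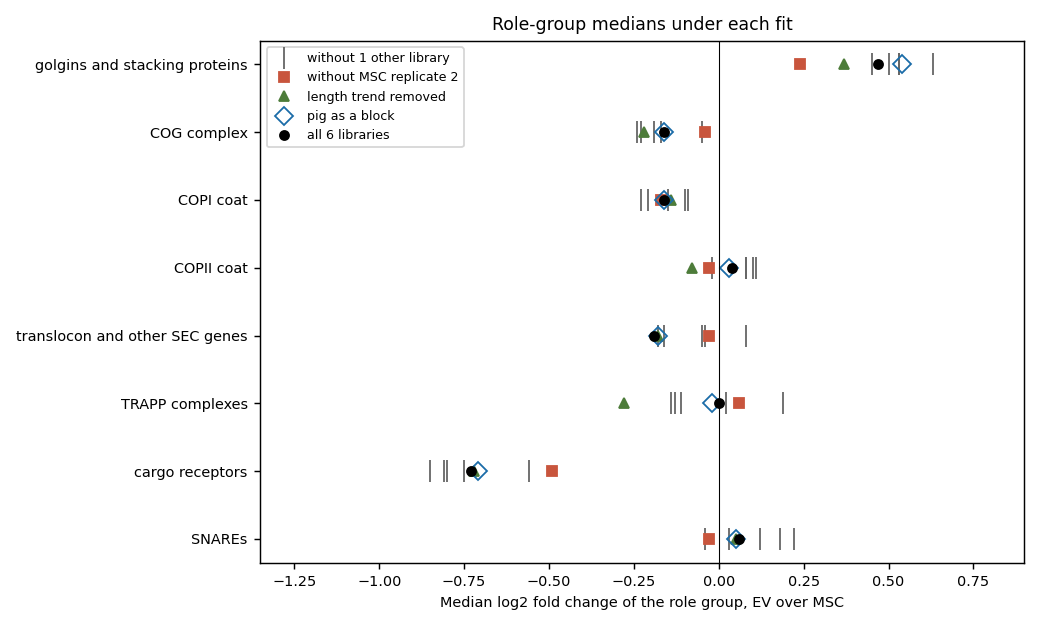
Median log2 fold change (EV over MSC) of each role group in the edgeR comparison as reported and in other fits, among them the pig as a block, the length trend removed, and MSC replicate 2 left out. Golgins lie above 0 and cargo receptors below 0 in every fit shown.

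Other genes of the same route were taken from a list of 82 partners that the symbol rule does not cover, of which 68 had an entry, 51 were tested and 11 were at 0 reads. Their median log2 fold change was -0.02. At a fold change over 2 and an unadjusted p-value under 0.05, 4 were higher in EVs (background 5.55%) and 0 lower (background 3.57%), and with edgeR adjustment 0 passed in either direction. The 4 higher genes were TRIP11, TMF1, GCC2 and ARFGEF1. The first 3 encode long coiled-coil proteins of the Golgi like the golgins, and the last an exchange factor that activates ARF GTPases at the trans-Golgi. Their gene models have 6466, 4422, 6676 and 11118 bases, all in the longest class above. With the length trend removed, fewer partner genes were higher at the same thresholds.

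TRIP11, also called GMAP-210, was at 34.4, 17.0 and 29.9 CPM in MSCs and at 69.7, 98.0 and 96.2 CPM in EVs. The EV libraries were all more than 2-fold above the highest MSC library, and the log2 fold change was 1.70 (SE 0.32, edgeR unadjusted p = 0.00084, adjusted p = 0.206), with an adjusted p of 0.0501 in edgeR with the pig as a block. TMF1 was at 40.3, 9.86 and 36.9 CPM in MSCs and at 70.6, 79.5 and 117 CPM in EVs (log2 fold change 1.61, SE 0.51). GCC2, or GCC185, was at 42.0, 26.5 and 46.8 CPM in MSCs and at 68.3, 82.4 and 87.5 CPM in EVs (log2 fold change 1.05, SE 0.28). Over the 11 tethers and coiled-coil proteins tested the median log2 fold change was 0.52, and every EV library lay above every MSC library for 5 of them, whereas none lay below (14.3% above and 13.6% below among all entries). MSC replicate 2 was again the lowest library for TRIP11, TMF1 and GCC2.

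Among the partners that act as cargo receptors, ERGIC1 was at 241, 237 and 186 CPM in MSCs and at 141, 122 and 129 CPM in EVs, and LMAN2 was at 143, 228 and 153 CPM in MSCs and at 107, 105 and 101 CPM in EVs. Both were below all MSC libraries in every EV library, with log2 fold changes of -0.76 (SE 0.22, unadjusted p = 0.0103) and -0.75 (SE 0.25, unadjusted p = 0.0191). LMAN1, another lectin receptor of the early route, had the opposite direction, with a log2 fold change of 0.79 (SE 0.41, unadjusted p = 0.0912) and no overlap between groups, and the median of the 6 such receptors tested was 0.07. The 10 clathrin coat and adaptor genes tested had a median of -0.26 and none had an unadjusted p-value under 0.05 (8.03% higher and 7.93% lower among all entries). Every EV library lay below every MSC library for 4 of the 10 and above for 0 (13.6% below and 14.3% above among all entries).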

How the data were processed

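RNA-Seq libraries of 3 MSC and 3 EV samples were compared, grouped by the sample labels. The authors deposited, per entry, raw read counts and RPKM per library with the gene length. According to the submitters' processing notes reads were aligned to susScr3 with TopHat 12.0.6 (the version as given there) and Bowtie 0.12.7, and counting is named as HTSeq in the notes and featureCounts in the study's methods. The labels name a stranded total RNA kit and the methods another kit, and the strand used in counting is not given in the sources used here.

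Symbols came from the table for 4336 entries and from an identifier table for 11804 of 25322 Ensembl identifiers. Of 29661 entries, 3 that were shifted by a column were left out, which leaves 29658. Deposited counts were fitted with edgeR 4.0.16 in R 4.3.3 (filterByExpr, TMM, quasi-likelihood test, no covariate), with Benjamini-Hochberg adjustment over all 12392 entries tested. The SE was taken as the log2 fold change divided by the square root of the F statistic. Log2 ratios within a pig used CPM with 0.5 added. Per-length levels are the deposited RPKM. Since nothing says more of the libraries than the pig they came from, the spread is that between 3 pigs.

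Alternatives were DESeq2 1.42.0 and its size factors, library totals, other filters, limma 3.58.1 on log2(RPKM + 1) and log2(RPKM + 0.1), the pig as a block, removal of a length trend, entries that share at least 90% of a span left out, entries of a symbol summed, and each library left out. Removal of both libraries of pig 2, and the length trend with the block, were added after the data were seen. Pairing comes from the pig labels. Deviations from the group means correlated at 0.251, 0.384 and 0.408 within pigs and at -0.364 to -0.038 between pigs. Such deviations cancel out within each group, so positive values within pigs force negative values between some pigs. Fits were tested on simulated data.

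Named were, in each of 8 role groups, genes with a fold change over 2 and an unadjusted p-value under 0.05, up to 3 per direction with the lowest p-values among those whose groups did not overlap, those past the adjusted threshold with the block, the highest by RPKM, and those below the filter. Members and lists were chosen with earlier results of these data known. Small-RNA tables were not used here. The values of 1 gene are not reported here, although it is counted in the totals.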

Additional observations from a re-analysis of the deposited data

How the results depend on the processing

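Leaving out 1 library in turn gave 0 to 3 genes more than 2-fold higher and 0 to 3 lower in EVs at the unadjusted threshold, 3 to 5 higher and 0 to 8 lower at any fold change, 2 to 6 higher partner genes, and a translocon group median between -0.18 and 0.08. With DESeq2 in place of edgeR 1 gene was higher at the adjusted threshold. More than 2-fold higher at the unadjusted threshold was 1 gene with limma on log2(RPKM + 1) and 1 without both libraries of pig 2. In place of 0, 1 gene was more than 2-fold lower at the same threshold with DESeq2's size factors and with DESeq2's test. The same held with no filter on low counts, with the length trend removed (1 also with the block), and without entries that share a span. The 7 genes lower at any fold change were 4 with library totals alone, 4 with the pig as a block, 4 with the block and the length trend removed, and 0 without pig 2. The 4 higher partner genes were 2 with limma on log2(RPKM + 1), with the length trend removed with or without the block, and without pig 2. The median of the 60 genes was -0.16 with the length trend removed and -0.17 with the block added, that of TRAPP -0.28 and -0.27, that of COPI 0.04 with no filter, and that of the translocon group -0.12 with limma on log2(RPKM + 1) and -0.27 without pig 2. In these cases the cause was not tested. Except where a share of all entries is given above, it was not counted for these fits.

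Signs turned for 3 genes. GORASP2 was at 0.01 with library totals and with both limma fits, at 0.13 without pig 2, and between -0.09 and 0.10 with single libraries left out. SEC31A was at 0.07 without pig 2 and between -0.19 and 0.03 with single libraries left out, and TRAPPC2L between -0.66 and 0.06. Of 490 refits of the 26 genes that the naming rule chose, 431 kept their direction and side of the unadjusted threshold, 45 lost it, 4 gained it and 10 turned. Apart from the counts above, the block changed no adjusted call. With 3 libraries a group and reads spread over nearly identical entries, a p-value that misses the threshold does not show that a gene did not differ.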

Other observations

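Some pairs of genes from the same coat or enzyme had transcript ratios that separated EVs from MSCs. These ratios of deposited RPKM were chosen after the values of single genes were seen and are given without a test. No share over other pairs of genes was computed. Some pairs set a longer gene over a shorter one. The models of SEC31A and SEC13 have 4306 and 669 bases, and those of COPA and COPZ1 5456 and 1947. The part of the length trend in these ratios was not tested. SEC31A over SEC13, the 2 parts of the COPII cage, was 0.986, 1.1 and 1.04 in the MSCs of pigs 1, 2 and 3 and 1.28, 1.68 and 1.53 in their EVs. COPA over COPZ1, the alpha and zeta subunits of COPI, was 0.688, 0.504 and 0.610 in MSCs and 0.833, 1.40 and 1.22 in EVs. SEC11A over SEC11C, the alternative catalytic subunits of the signal peptidase, was 2.87, 3.39 and 2.98 in MSCs and 4.57, 4.18 and 7.19 in EVs. SEC24C over SEC24B was 3.79, 5.55 and 4.12 in MSCs and 3.12, 2.3 and 2.3 in EVs. Of 14 pairs compared the groups did not overlap in 5, which were these 4 and TMED9 over TMED3, and they overlapped in the other 9, among them COPZ1 over COPZ2, COPB2 over COPB1, SEC31A over SEC31B and GOLGB1 over GOLGA4.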
